A study of Mus musculus with 20 samples.

Results

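Microglial transcripts of 9 chemokine genes (Ccl2, Ccl3, Ccl4, Ccl5, Ccl6, Ccl9, Ccl12, Cxcl10 and Cxcl16) and of the chemokine receptor gene Cxcr4 were followed in 20 bulk RNA-seq libraries of mouse brain microglia. These 10 genes were taken by symbol from the 21326 entries listed for every library, and each had a single entry and at least 15 reads in every library. All mice were 9 months old, of the C57BL/6 strain. Of 4 littermate genotypes, WT mice carry neither change, C3aR-KO mice have the C3ar1 gene disrupted in every cell, and APP-KI mice have their App gene replaced by APP NL-G-F, a humanized form with 3 familial mutations that leads to amyloid plaques. The fourth genotype, APP-KI; C3aR-KO, combines both changes. Their brains were digested with papain and DNase, and CD45mid CD11b+ cells were sorted, giving 3 libraries each of WT, APP-KI and C3aR-KO and 5 of the combined genotype, here called all sorted microglia. A further 3 WT and 3 APP-KI libraries came from littermates of another line, a C3ar1 fl/fl line that reports C3ar1 expression with Td-tomato, and their CD45mid CD11b+ cells were sorted once more for Td-tomato. These are the libraries labelled C3aR-positive. The comparisons ask what the APP-KI genotype does to these genes with and without C3aR, what C3aR loss does to them on each background, and whether the C3aR-positive sort differs from all sorted microglia. The labels number the libraries as replicates and name no mouse, so the p-values measure the spread between these libraries.

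Chemokines are small secreted proteins that attract and position cells carrying a matching G protein-coupled receptor. CCL3, the related CCL4 and CCL5 attract monocytes and T cells, and CCL3 and CCL5 act through CCR1, which is also the receptor of the rodent chemokines CCL6 and CCL9; CCL2 and CCL12 act through CCR2, CXCL10 through CXCR3, and CXCL16, a membrane-bound chemokine that ADAM10 can cut loose, through CXCR6. CXCR4 is the receptor of CXCL12. In the brain, Ccl3 and Ccl4 are known as genes that microglia switch on near plaques, and also as genes that warm enzymatic digestion can raise in microglia, whereas Cxcl10 is a classical interferon-induced gene.

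Expression is given as a scaled value, that is, the number of reads on a gene divided by the 75th percentile of that library's counts and multiplied by 1 constant for all libraries, so that libraries of different depth can be set side by side. It is not divided by gene length. The libraries labelled C3aR-positive held 13939559 to 30388941 reads and the libraries of all sorted microglia 42239056 to 76608464. Between 14888 and 16632 genes were detected in 14 libraries, but 4 held only 12387 to 13250 (APP-KI replicate 4, C3aR-KO replicates 1 and 2, and APP-KI; C3aR-KO replicate 1) and 2 held 21219 (APP-KI replicate 5) and 17450 (APP-KI; C3aR-KO replicate 2). Results from all sorted microglia are therefore also given without the 4 libraries of fewest genes and without all 6. Without the 4, C3aR-KO replicate 3 is alone in its group, and without all 6 APP-KI replicate 6 is too. Comparisons with a group of 1 are given without p-values. All 6 belong to library series 24 (the leading digits of the library numbers in the deposited data). Of that series WT replicate 4 then alone remains, so differences within all sorted microglia without all 6 are those within series 26. All 9 microglia markers read (among them P2ry12 and Tmem119) were detected in every condition, with a summed scaled value of 7921 to 26045 per library. C3ar1 itself was at 276, 329.9 and 340 in the WT libraries and at 165, 315 and 388 in the APP-KI libraries of all sorted microglia, against 39.9 to 68.1 in C3aR-KO and 61.9 to 80.4 in APP-KI; C3aR-KO. Every knockout library thus lay below every library of all sorted microglia with intact C3ar1. In the libraries labelled C3aR-positive, C3ar1 was at 383, 251 and 201 in APP-KI but at only 71.0, 81.2 and 37.6 in WT. The WT libraries labelled C3aR-positive therefore carried C3ar1 RNA at the level of the knockouts, and any direction drawn from them rests on their label.

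On GRCm38, 8 of the 10 genes lie on chromosome 11. Ccl5, Ccl9, Ccl6, Ccl3 and Ccl4 follow each other within 138.906 kb (chr11:83525778-83664683), with 9.245 kb between Ccl9 and Ccl6 and 13.228 kb between Ccl3 and Ccl4. Ccl2 and Ccl12 share 67.83 kb (chr11:82035571-82103400), and Cxcl16 lies apart from both (chr11:70453983-70459984, minus strand). Cxcl10 is on chromosome 5 (chr5:92346638-92348889, minus strand) and Cxcr4 on chromosome 1 (chr1:128588199-128592293, minus strand). Exons of Cxcl10 overlap those of Art3 on the other strand, and exons of Cxcl16 overlap those of Zmynd15, whose scaled values were at most 8.17 and 54.1. Whether strand was used in the counting is not given in the sources used here, so reads of these overlapping genes cannot be told apart. Ccl6 with Ccl9, and Ccl2 with Ccl12, are related genes, and how reads matching more than 1 gene were counted is not given either.

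The promoters of 6 of the 10 genes were found in the RefSeq table (GRCm38.p6), and 4 are printed, each as the 250 bases before the start site in the direction of transcription. The first pair belongs to the neighbours Ccl6 (chr11:83593088-83593337, minus strand) and Ccl9 (chr11:83578637-83578886, minus strand), shown because Ccl6 and Ccl9 differ in their response to APP-KI. Capitals mark bases that are identical in the best local alignment of the sequences around both start sites. It ran from position -59 to 15 of Ccl6 and from -18 to 49 of Ccl9, counted from the start site. It held 59 identical bases in 74 aligned columns (79.7%), of which the part before each start site is printed. Ccl6 capitals beyond the stretch aligned to Ccl9 positions before its start site match Ccl9 bases after it. For the 250 bases before each start site alone, the best alignment held 16 identical bases in 17 columns (94.1%).
Ccl6: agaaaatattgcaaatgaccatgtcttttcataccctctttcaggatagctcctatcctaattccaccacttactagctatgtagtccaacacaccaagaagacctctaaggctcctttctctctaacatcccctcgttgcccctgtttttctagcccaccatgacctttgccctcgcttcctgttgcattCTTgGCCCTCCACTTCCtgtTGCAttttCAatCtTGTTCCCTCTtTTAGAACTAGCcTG
Ccl9: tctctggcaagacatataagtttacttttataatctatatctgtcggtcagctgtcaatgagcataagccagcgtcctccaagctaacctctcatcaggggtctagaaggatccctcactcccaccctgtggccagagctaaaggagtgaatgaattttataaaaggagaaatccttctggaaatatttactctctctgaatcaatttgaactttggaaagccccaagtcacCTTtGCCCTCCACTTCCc
The next pair belongs to Ccl3 (chr11:83649379-83649628, minus strand), shown because it rose in every APP-KI comparison, and to Cxcl10 (chr5:92348890-92349139, minus strand), shown because it is the member with the most motif matches. Here capitals mark matches to 1 of 6 motifs, searched on both strands: NF-κB (by name), AP-1 (TGANTCA), ISRE (GAAA, any 2 bases, GAAA), the hypoxia response element (ACGTG), C/EBP (TTGCNNAA) and PU.1 (GAGGAA).
Ccl3: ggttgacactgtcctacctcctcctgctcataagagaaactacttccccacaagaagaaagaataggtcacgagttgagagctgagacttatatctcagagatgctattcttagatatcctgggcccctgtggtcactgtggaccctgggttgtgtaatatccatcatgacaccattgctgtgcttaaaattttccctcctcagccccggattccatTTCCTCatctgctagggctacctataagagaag
Cxcl10: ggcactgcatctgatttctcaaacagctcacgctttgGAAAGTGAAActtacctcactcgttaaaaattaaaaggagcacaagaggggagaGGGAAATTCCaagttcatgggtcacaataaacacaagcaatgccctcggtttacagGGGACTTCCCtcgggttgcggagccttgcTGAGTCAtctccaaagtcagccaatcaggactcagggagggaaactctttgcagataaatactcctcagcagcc
Cxcl10 held an ISRE match at position -213, NF-κB matches at -159 and -103 and an AP-1 match at -74, none overlapping another. Ccl3 held a PU.1 match at -33 on the minus strand and Ccl12 held 1 at -130. Ccl9 held an AP-1 match at -53 and an NF-κB match at -35, while no motif of the 6 was matched in the windows of Ccl6 and Cxcr4. Of 32851 promoters of this length, 3.9% held the NF-κB motif, 6.75% AP-1, 2.98% ISRE, 16.6% the hypoxia response element, 9.56% C/EBP and 23.3% PU.1.

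APP-KI could be compared with its control in 3 settings, and Ccl3, Ccl4, Ccl6 and Cxcr4 were the genes that rose in all of them. Differences were tested with limma on log2(scaled value + 1) for genes whose scaled values averaged 1 or more, and a gene counted as changed at a Benjamini-Hochberg adjusted p-value under 0.05 over all genes tested. All 10 genes passed this filter in each of the 3 fits. Adding 1 makes the log2 differences of weakly expressed genes smaller than their true ratios. Among the libraries labelled C3aR-positive, APP-KI exceeded WT for 7 of the 10 genes and for none was it lower, while 13% of all 12315 genes tested were higher and 9.7% lower. The same 7 genes were those whose 3 APP-KI libraries all lay above all 3 WT libraries, a pattern that 17.8% of genes tested showed. The median log2 difference of the 10 genes was 1.93, against -0.17 over all genes tested. In all sorted microglia, 4 were higher in APP-KI than in WT and none was lower, where 2.22% of 12410 genes were higher and 1.93% lower, and the median was 1.01 against -0.01. Ccl3, Ccl4, Ccl6 and Cxcl16 separated without overlap there, as 12.8% of genes did. On the C3aR-KO background, that is, with both changes against C3aR-KO alone, the same 4 were higher and none was lower, where 3.96% of genes were higher and 2.97% lower, with a median of 0.77 against -0.03. All 4 separated without overlap on this background, as 6.34% of genes did. The last 2 comparisons share no library, but were fitted together.

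The count of 4 in all sorted microglia rests on few libraries. It was 2 (Ccl3 and Ccl6) when WT replicate 4 or 5, or APP-KI replicate 4, 5 or 6, was left out, and 5 without the 4 libraries of fewest genes. In the fit without those 4 libraries 1661 genes were higher and 1849 lower over the whole table, against 275 and 239 with them. With C3aR-KO as background the count ran from 3 to 5 with 1 library left out, and for the libraries labelled C3aR-positive it stayed at 7. With median ratio scaling in place of the 75th percentile, 73.1% of the genes called in that comparison were higher, against 57.3%, the genes called lower went from 1195 to 669, and the median of all genes moved from -0.17 to -0.04, with the same 7 members called.

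**Figure D1:**
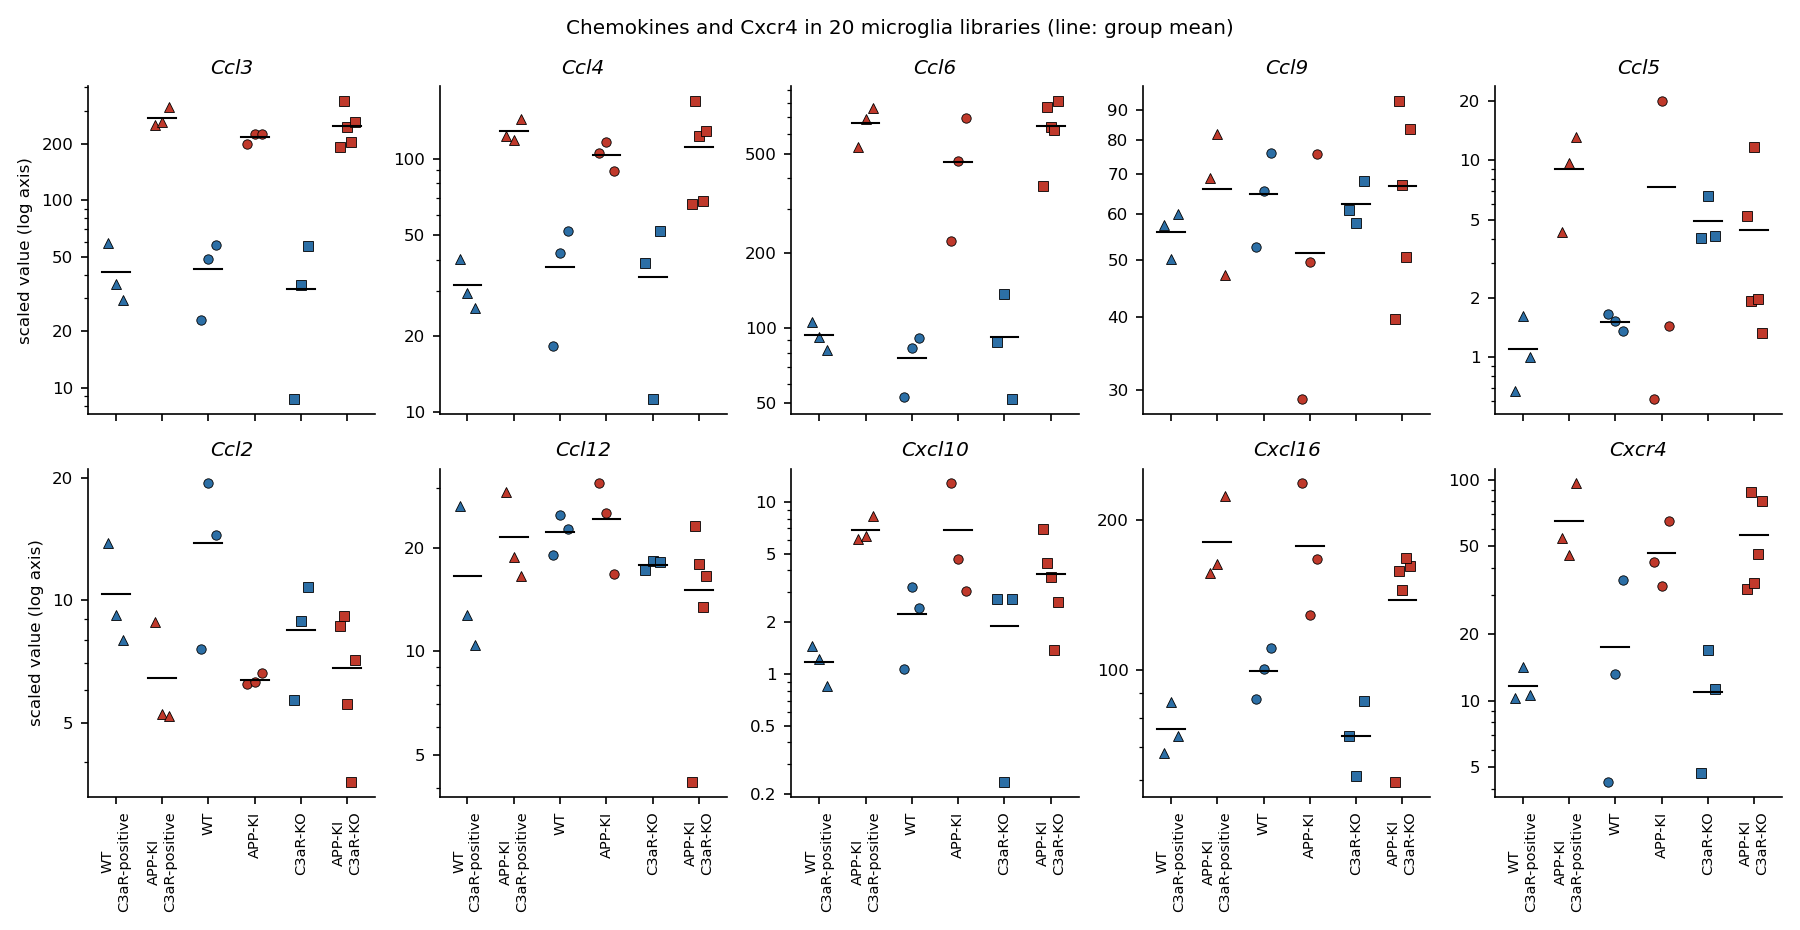
Scaled values (log axis) of the 10 genes in the 20 libraries, grouped by condition, with 1 point per library and a line at each group mean; red marks APP-KI genotypes, triangles the libraries labelled C3aR-positive and squares the C3aR-KO genotypes. For Ccl3, Ccl4 and Ccl6, all 11 libraries with APP-KI lie above all 9 without it.

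Loss of C3ar1 changed none of the 10 genes past the threshold. On the APP-KI background 0 of 10 were called for C3ar1 loss, where 0.00806% of genes (C3ar1 alone) were, and all 10 adjusted p-values were 0.998 by limma. On the WT background it was again 0 of 10 where 0.00806% of genes were called, C3ar1 alone as before. A test of whether C3ar1 loss acted differently on the APP-KI and WT backgrounds called 0 of 12410 genes (0%). At an unadjusted p under 0.05, that test gave 111 genes higher and 92 lower, with none of the 10 among them, and DESeq2 called 1 gene. At an unadjusted p under 0.05 limma gave 38 genes higher and 109 lower for C3ar1 loss on the APP-KI background and 123 and 221 on the WT background, with none of the 10 among them, and neither edgeR nor DESeq2 called any of the 10. The intervals were wide. On the APP-KI background the 95% interval of the log2 difference ran from -0.83 to 0.78 for Ccl3, from -1.03 to 0.73 for Ccl4, from -0.29 to 1.23 for Ccl6 and from -1.01 to 0.83 for Cxcr4, which leaves room for changes of either sign in all 4. On the WT background it ran from -1.26 to 0.55 for Ccl3, from -1.05 to 0.93 for Ccl4, from -0.52 to 1.19 for Ccl6 and from -1.05 to 1.01 for Cxcr4. Ccl12 (17.2 to 18.4 against 19.1 to 25.0) and Cxcl16 lay lower in all 3 C3aR-KO libraries than in all 3 WT libraries, as 9.31% of genes did, and Ccl5 lay higher, with log2 differences of -0.21 (-1.19 to 0.78), -0.29 (-0.94 to 0.35) and 0.88 (-0.75 to 2.51).

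**Figure D2:**
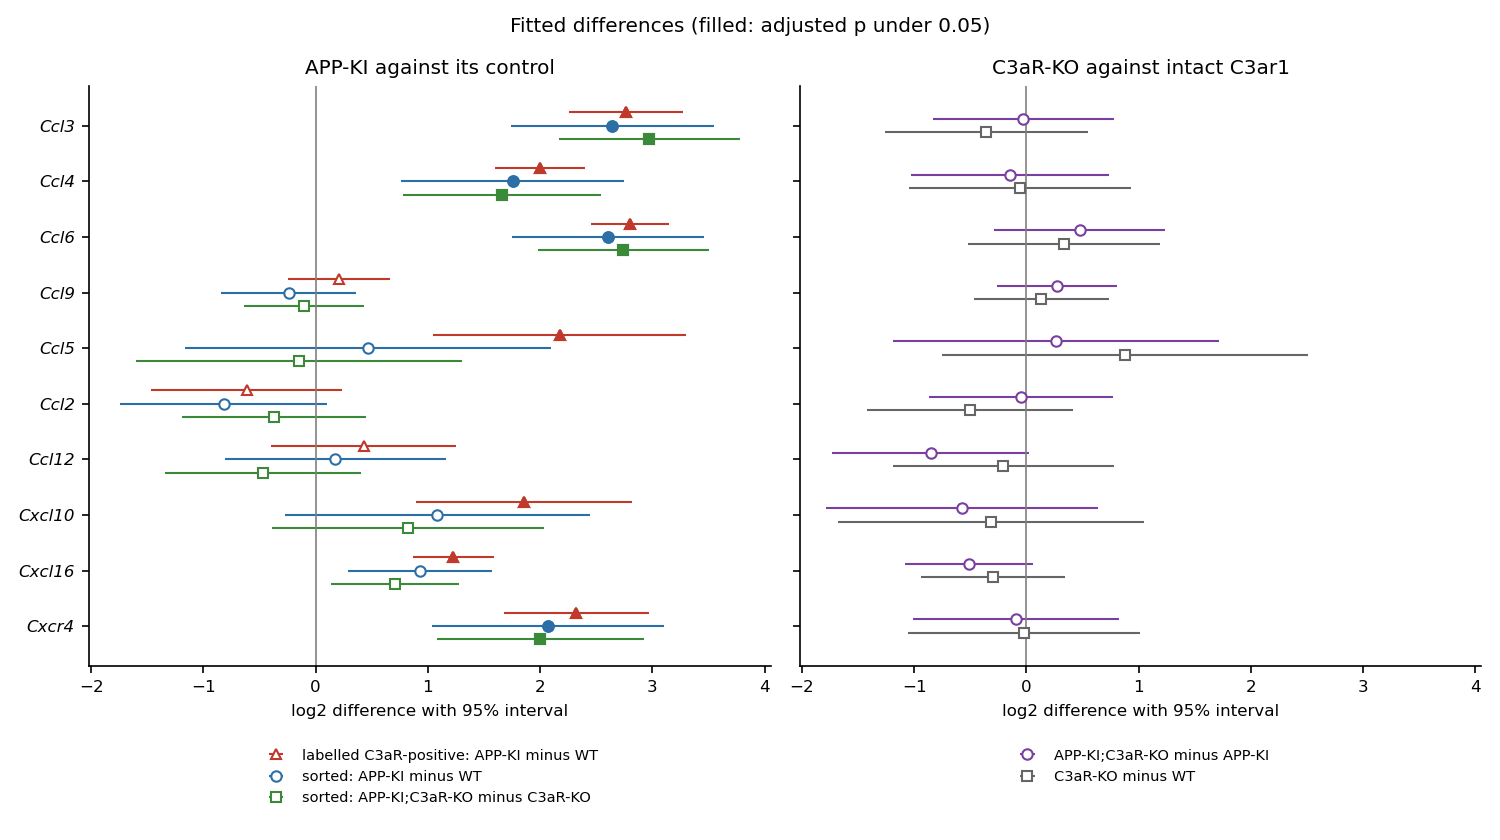
Fitted log2 differences (points) with 95% intervals (lines) of the 10 genes, for APP-KI against its control in 3 settings (left) and for C3aR-KO against intact C3ar1 on 2 backgrounds (right); filled points passed an adjusted p-value of 0.05. On the left, Ccl3, Ccl4, Ccl6 and Cxcr4 are filled in all 3 settings, and on the right no point is filled.

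The effect of APP-KI was also compared between the libraries labelled C3aR-positive and all sorted microglia, a contrast in which the sort, the reporter line and the library series (the leading digits of the library numbers in the deposited data) cannot be told apart. None of the 10 genes and 0 of 12592 genes in all (0%) passed the threshold with limma, while at an unadjusted p under 0.05 there were 836 genes higher and 644 lower, and DESeq2 called 87 and 33. The estimate was above 0 for all 10 genes and for 48.8% of all genes, with medians of 0.44 and -0.02, and it was 1.38 for Ccl5 (95% interval -0.94 to 3.70), 0.71 for Cxcl10 (-0.71 to 2.14) and 0.44 for Cxcl16 (-0.19 to 1.07). These 3 genes passed the threshold in the libraries labelled C3aR-positive and not in all sorted microglia, but that difference was not itself past the threshold, with limma adjusted p-values of 0.606, 0.669 and 0.551. Within WT, 0 of the 10 differed between the libraries labelled C3aR-positive and all sorted microglia, and within APP-KI 0 of 10, again with 0% of 12592 genes called by limma. Over all genes, DESeq2 called 1 higher and 35 lower in the first of these and 1 higher and 27 lower in the second, and at an unadjusted p under 0.05 limma gave 126 and 426 in the first and 200 and 457 in the second. Within APP-KI, Ccl3 and Ccl4 were the members that separated without overlap, higher in the libraries labelled C3aR-positive, as 1.86% of genes were, with log2 differences of 0.33 (95% interval -0.31 to 0.98) and 0.31 (-0.33 to 0.96). Ccl6, which overlapped, had 0.65 (-0.06 to 1.36). Within WT, Cxcl16 alone separated, lower in the libraries labelled C3aR-positive, as 13.2% of genes were (-0.38, -0.83 to 0.06).

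Ccl3 and Ccl4, which encode related inflammatory chemokines, were higher in every library with APP-KI than in every library without it. In the libraries labelled C3aR-positive, the scaled value of Ccl3 was 59.1, 35.5 and 29.4 in WT and 251, 262 and 314 in APP-KI. Among all sorted microglia it was 22.9, 48.7 and 57.3 in WT and 200.1, 227 and 227 in APP-KI. In C3aR-KO it was 8.67, 35.4 and 56.7, and in APP-KI; C3aR-KO 192, 245, 260.3, 338 and 204. The lowest library with APP-KI thus stood more than 3-fold above the highest without it, whatever the sort or C3ar1 genotype. Relative to their mean, the C3aR-KO libraries spread the most (SD 24.1 at a mean of 33.6). The log2 difference was 2.76 ± 0.23 (SE, limma adjusted p = 6.75e-05) in the libraries labelled C3aR-positive, 2.64 ± 0.42 in all sorted microglia (adjusted p = 0.00189) and 2.97 ± 0.38 on the C3aR-KO background (adjusted p = 0.00017). Ccl3 passed the threshold in these 3 comparisons without any 1 library, and in all sorted microglia without the 4 libraries of fewest genes. Without all 6 libraries of unusual gene number the difference was 2.08 in all sorted microglia and 2.19 on the C3aR-KO background.

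Ccl4 moved in the same direction with less margin. It was at 40.2, 29.5 and 25.9 in WT and 123, 119 and 143 in APP-KI in the libraries labelled C3aR-positive. Across all sorted microglia it was at 18.2, 42.5 and 51.8 in WT and 105, 116 and 89.5 in APP-KI. It was at 38.9, 11.3 and 51.9 in C3aR-KO and 66.2, 123, 128, 169 and 67.9 in APP-KI; C3aR-KO. The 2 sides did not overlap in any of the 3 comparisons, although the lowest APP-KI; C3aR-KO libraries came near the highest C3aR-KO library. Its log2 difference was 2.00 ± 0.18 (SE, limma adjusted p = 0.000112) in the libraries labelled C3aR-positive, 1.76 ± 0.46 in all sorted microglia (adjusted p = 0.0477) and 1.66 ± 0.41 on the C3aR-KO background (adjusted p = 0.0238). Within all sorted microglia the call was lost without any 1 of 9 libraries (each of the 6 WT and APP-KI libraries, C3aR-KO replicate 3, and APP-KI; C3aR-KO replicates 3 and 4), with limma adjusted p-values from 0.0503 to 0.378. It was lost there in 6 further settings, a pseudocount of 0.1, no filter, edgeR, the replicate block, no series term and only the 2 groups compared (adjusted p = 0.0661 to 0.301). Without all 6 libraries of unusual gene number the difference there was 0.92. On the C3aR-KO background the call was lost without C3aR-KO replicate 2 (1.15, adjusted p = 0.105) or APP-KI; C3aR-KO replicate 2 (1.45, adjusted p = 0.0672) or 4 (1.56, adjusted p = 0.0531), with no filter (0.0733), with the replicate block (0.126) and with only the 2 groups compared (0.0793). The difference on that background was 1.23 without the 4 libraries of fewest genes and 1.12 without all 6. Within the first library series of all sorted microglia (2 APP-KI and 1 WT library) the Ccl4 difference was 2.54, and within the second (1 and 2) it was 0.92, against 3.16 and 2.08 for Ccl3. The values of the second series are those without all 6 libraries of unusual gene number and are no separate check.

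Ccl6 and Ccl9 are neighbouring genes for CCR1 ligands, and of this pair Ccl6 alone passed the threshold. Ccl6 was at 106, 92.6 and 82.2 in WT and 532, 690.2 and 766 in APP-KI in the libraries labelled C3aR-positive. In all sorted microglia it was at 53.1, 83.2 and 91.2 in WT and 224, 466 and 697 in APP-KI. In C3aR-KO it was at 88.4, 137 and 52.0, and in APP-KI; C3aR-KO at 372, 640.5, 814, 769.8 and 621. No library with APP-KI overlapped with any without it, and the lowest value with APP-KI came from APP-KI replicate 4, a library of few genes. The log2 difference was 2.80 ± 0.16 (SE, limma adjusted p = 1.49e-05), 2.61 ± 0.40 (adjusted p = 0.00142) and 2.74 ± 0.36 (adjusted p = 0.000202) in the 3 comparisons in the order above, and the call held in each without any 1 library.

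Ccl9 did not pass the threshold in any comparison. It was at 57.3, 50.2 and 59.9 in WT and 69.1, 82.1 and 47.3 in APP-KI in the libraries labelled C3aR-positive. Among all sorted microglia it ran from 52.7 to 76.3 in WT, from 29.0 to 75.8 in APP-KI, from 57.9 to 68.3 in C3aR-KO and from 39.7 to 93.4 in APP-KI; C3aR-KO. The groups overlapped in all 3 comparisons. Its log2 differences were 0.21 (95% interval -0.24 to 0.66), -0.24 (-0.84 to 0.36) and -0.10 (-0.64 to 0.43), with limma adjusted p-values of 0.467, 0.91 and 0.859.

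The ratio of Ccl6 to Ccl9 reads within a library does not depend on how libraries are scaled. It was between 0.761 and 2.37 (median 1.37) in the 9 libraries without APP-KI and between 7.69 and 16.2 (median 9.38) in the 11 with it. No library of either set reached the other, and the ratio was 1.01 to 1.27 in WT and 7.73 to 9.38 in APP-KI among all sorted microglia, 0.761 to 2.37 in C3aR-KO and 8.25 to 12.3 in APP-KI; C3aR-KO. Ccl3 over Ccl4, the other neighbouring pair, was between 0.223 and 3.15 (median 1.15) without APP-KI and between 1.91 and 3.00 (median 2.04) with it. Here the sets overlapped, through C3aR-KO replicate 2 at 3.15, while C3aR-KO replicate 1 had the lowest ratio. These ratios compare reads and are not corrected for the lengths of the genes.

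**Figure D3:**
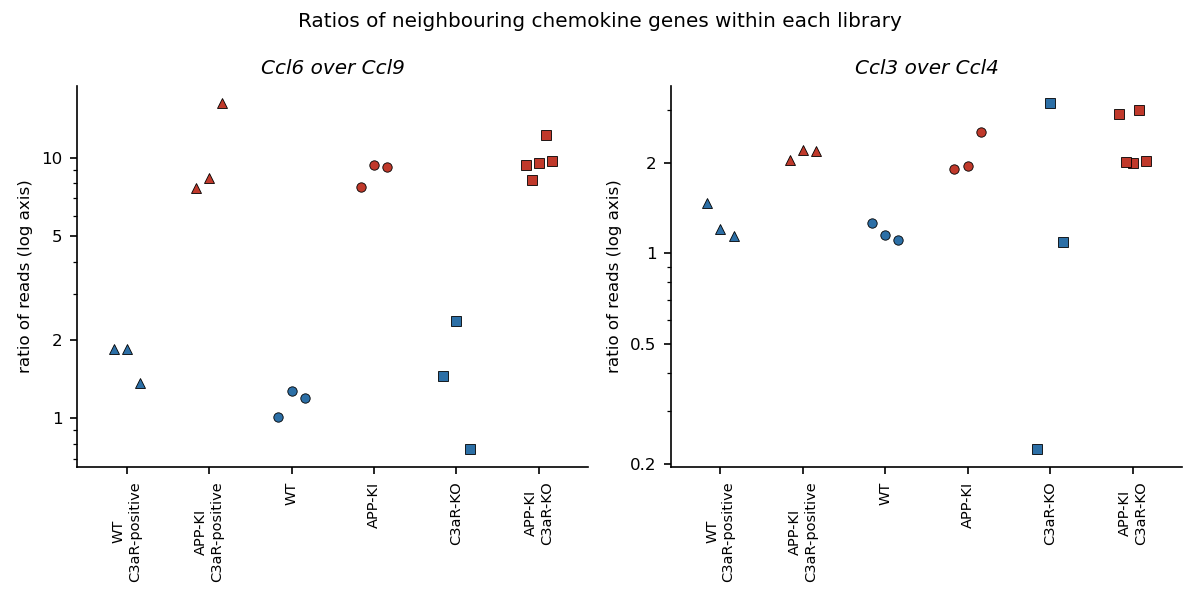
Ratio of reads of Ccl6 over Ccl9 (left) and Ccl3 over Ccl4 (right) within each library (log axes), 1 point per library, grouped by condition. Ccl6 over Ccl9 is at most 2.37 in libraries without APP-KI and at least 7.69 in libraries with it, while Ccl3 over Ccl4 overlaps through the C3aR-KO libraries.

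Ccl5, which encodes a ligand of CCR1 that T and NK cells make in quantity, was low and uneven. Among the libraries labelled C3aR-positive it was at 0.675, 1.61 and 0.997 in WT and at 4.34, 9.71 and 13.1 in APP-KI, from 21 to 33 and from 84 to 224 reads per library. The 2 groups did not overlap, and the log2 difference was 2.17 ± 0.50 (SE, limma adjusted p = 0.0131). Across all sorted microglia it was at 1.66, 1.53 and 1.35 in WT but at 0.611, 20.002 and 1.44 in APP-KI. The high value belonged to APP-KI replicate 5, the library with the most genes detected, and the log2 difference of 0.47 (95% interval -1.16 to 2.10, limma adjusted p = 0.957) became -0.45 without it. In C3aR-KO Ccl5 was at 4.04, 6.57 and 4.11, and in APP-KI; C3aR-KO at 5.20, 11.7, 1.32, 1.93 and 1.97. All 3 C3aR-KO libraries lay above all 3 WT libraries, as 9.16% of genes did, but the difference did not pass (limma adjusted p = 0.995). With C3aR-KO as background the difference with APP-KI was -0.15 (limma adjusted p = 0.928), and without the 6 libraries of unusual gene number it was -0.91.

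Markers of T and NK cells (9 of 11 found) moved with Ccl5 in part of the libraries. Their summed scaled value was 15.8, 87.7 and 3.24 in APP-KI, 9.09, 72.1 and 9.14 in C3aR-KO and 71.8, 42.0, 0.618, 2.07 and 1.09 in APP-KI; C3aR-KO, against 2.63 to 4.4 in WT. The library highest in Ccl5 was also the highest in the markers within APP-KI and within C3aR-KO. In APP-KI; C3aR-KO it was not, since replicate 2 led in Ccl5 and replicate 1 in the markers, and APP-KI replicate 4 combined the lowest Ccl5 of all 20 libraries with a sum of 15.8. In the libraries labelled C3aR-positive the sum was 3.99 to 6.24 in WT and 1.99 to 5.53 in APP-KI, with Cd3g, Gzma, Gzmb and Ncr1 at 0 in all 6 and Cd3e and Nkg7 also at 0 in the 3 from APP-KI. The sum thus overlapped between the groups there, whereas single markers of few reads went either way. Klrb1c, an NK cell receptor gene, was at 0.0321 to 0.285 in WT and at 0, 1.71 and 1.78 in APP-KI (at most 41 reads), and Cd3d was at 0, 0.418 and 0.684 in WT and at 3.38 in 1 and 0 in 2 APP-KI libraries. For all sorted microglia Klrb1c was at 0.187 to 0.252 in WT and at 2.13 to 3.54 in APP-KI, without overlap, and at 0.0157 to 0.297 in C3aR-KO and 0.0689 to 0.197 in APP-KI; C3aR-KO. Its mean was too low for it to be tested in either fit. Over the 20 libraries Pearson's r between log2 Ccl5 and the log2 sum was 0.53, and 0.70 after subtracting group means, given as a description since both values come from the same library. None of the marker genes tested (1 in the libraries labelled C3aR-positive, 5 in all sorted microglia) was called in an APP-KI comparison by limma, edgeR or DESeq2, nor at an unadjusted p under 0.05, and their part in the Ccl5 values of all sorted microglia was not tested.

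Ccl2 and Ccl12, the CCR2 ligands, did not pass the threshold in any comparison. Ccl2 ran from 8.01 to 13.8 in WT and from 5.19 to 8.84 in APP-KI in the libraries labelled C3aR-positive. Within all sorted microglia it was at 7.58, 19.4 and 14.4 in WT and at 6.22, 6.30 and 6.62 in APP-KI, so that every APP-KI library lay below every WT library, as 16.4% of genes did. It was at 5.67, 8.88 and 10.8 in C3aR-KO and at 8.64, 5.57, 7.12, 9.16 and 3.58 in APP-KI; C3aR-KO, which overlapped. The log2 differences were -0.61 (95% interval -1.46 to 0.24), -0.82 (-1.74 to 0.10) and -0.37 (-1.19 to 0.45) in the 3 comparisons, with limma adjusted p-values of 0.264, 0.509 and 0.636. Markers of border macrophages, which line the vessels and membranes of the brain, moved the same way. Their summed scaled value over 8 genes (Mrc1, Cd163, Lyve1, Ms4a7, F13a1, Cbr2, Clec4n and Pf4, all 8 detected in each condition) was 456 to 1216 in WT and 274 to 294 in APP-KI, and 489 to 722 and 186 to 421 in the libraries labelled C3aR-positive. It was 413 to 609 in C3aR-KO and 202 to 367 in APP-KI; C3aR-KO. Of the 8, 5 were lower in APP-KI than in WT in the libraries labelled C3aR-positive, where 9.7% of all genes were, and 2 (Mrc1 and F13a1) in each of the other 2 APP-KI comparisons, where 1.93% and 2.97% were. The call of F13a1 was lost without any 1 of 3 and 7 libraries in these (limma adjusted p = 0.0528 to 0.119), and both F13a1 and Mrc1 were lost on the C3aR-KO background with the replicate block (0.258 and 0.0583). Pearson's r between log2 Ccl2 and the log2 sum was 0.82 over the 20 libraries and 0.66 after subtracting group means, and the part of these cells in the Ccl2 values was not tested. In bulk samples, fewer cells of a type and less RNA per cell cannot be told apart.

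**Figure D4:**
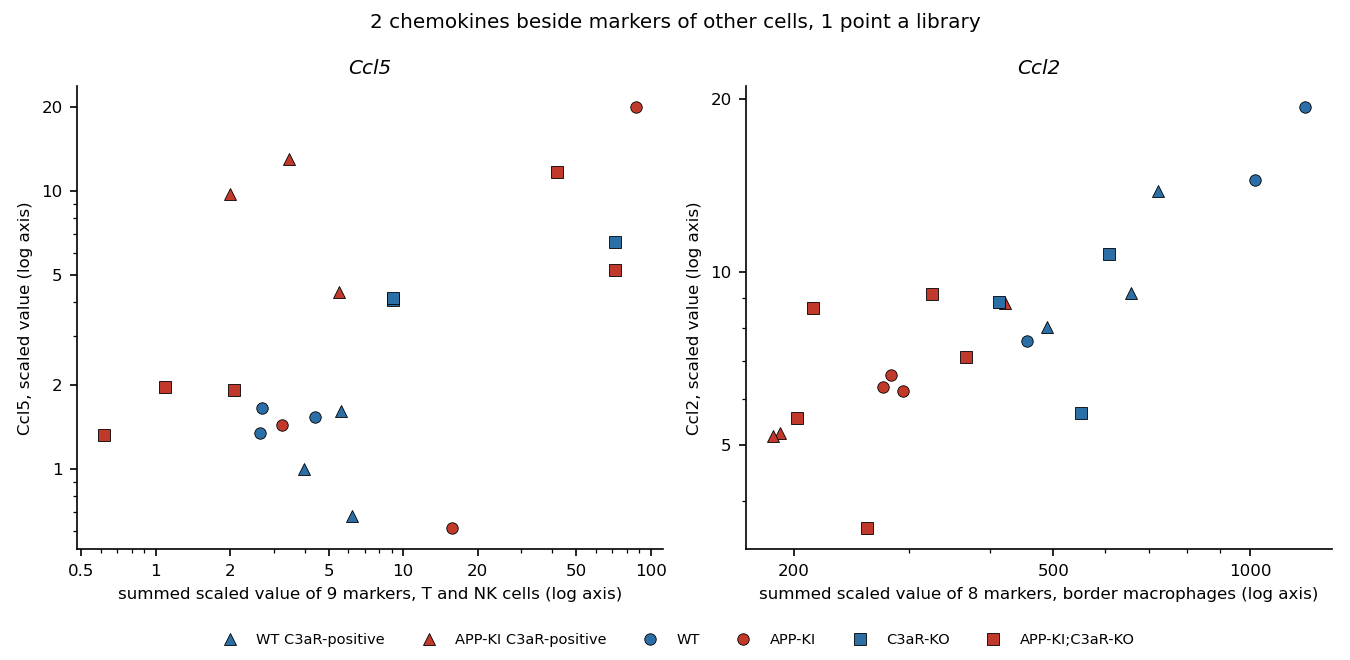
Scaled value of Ccl5 against the summed scaled value of 9 T and NK cell markers (left) and of Ccl2 against that of 8 border macrophage markers (right), 1 point per library, all axes logarithmic; colours and shapes mark the 6 conditions. The 3 APP-KI libraries labelled C3aR-positive are high in Ccl5 at a marker sum of at most 5.53, and Ccl2 is highest where the border macrophage sum is highest.

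Ccl12 lay between 10.5 and 30.9 in 19 libraries and at 4.16 in APP-KI; C3aR-KO replicate 1, a library of few genes. Its log2 differences with APP-KI were 0.43 (95% interval -0.40 to 1.25) in the libraries labelled C3aR-positive, 0.18 (-0.81 to 1.16) in all sorted microglia and -0.47 (-1.34 to 0.41) on the C3aR-KO background, with limma adjusted p-values of 0.42, 0.981 and 0.561. For C3ar1 loss on the APP-KI background it was -0.85 (-1.73 to 0.02, adjusted p = 0.998), and -0.37 without that library.

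Cxcl16, the membrane-bound ligand, was the higher of the 2 CXC chemokines per kb of exon in every condition. Among the libraries labelled C3aR-positive it was at 68.2, 86.1 and 73.8 in WT and at 157, 163 and 223 in APP-KI. In all sorted microglia it was at 87.4, 101 and 111 in WT and at 237, 129 and 167 in APP-KI. In C3aR-KO it was at 73.5, 61.3 and 86.6, and in APP-KI; C3aR-KO at 59.6, 145, 161, 158 and 168. APP-KI libraries lay above WT libraries in both sorts, and 4 of the 5 APP-KI; C3aR-KO libraries lay above all C3aR-KO libraries. Its log2 difference was 1.23 ± 0.16 (SE, limma adjusted p = 0.000751) in the libraries labelled C3aR-positive, 0.93 ± 0.30 in all sorted microglia (adjusted p = 0.125) and 0.71 ± 0.27 on the C3aR-KO background (adjusted p = 0.141). The last 2 passed once APP-KI; C3aR-KO replicate 1, at 59.6, was left out (0.85, adjusted p = 0.0156, and 1.02, adjusted p = 0.00287). Without the 4 libraries of fewest genes the difference was 0.60 in all sorted microglia (limma adjusted p = 0.000426) and 0.92 on the C3aR-KO background. Zmynd15, whose exons overlap those of Cxcl16, was at 10.6 to 20.9 in WT and 30.6 to 39.7 in APP-KI in the libraries labelled C3aR-positive, and its part in the Cxcl16 values was not tested.

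Cxcl10, the interferon-induced ligand of CXCR3, was the lowest of the 10 genes per kb of exon, with 15 to 607 reads per library. In the libraries labelled C3aR-positive it was at 1.45, 1.22 and 0.854 in WT and at 6.05, 6.33 and 8.26 in APP-KI, without overlap. The log2 difference was 1.86 ± 0.43 (SE, limma adjusted p = 0.0132), while Art3, which shares exon sequence with it, was at 0.32 to 0.537 in WT and 0.629 to 8.17 in APP-KI. Among all sorted microglia it was at 1.07, 3.18 and 2.40 in WT and at 12.8, 4.65 and 3.05 in APP-KI, where the high value came from APP-KI replicate 4. In C3aR-KO it was at 2.73, 0.236 and 2.73, and in APP-KI; C3aR-KO at 6.92, 3.66, 2.63, 4.39 and 1.37. The groups overlapped in both comparisons, with log2 differences of 1.08 (95% interval -0.28 to 2.44, limma adjusted p = 0.597) and 0.83 (-0.38 to 2.04, adjusted p = 0.45). Of 23 other interferon-induced genes tested, 16 were higher and none was lower in APP-KI in the libraries labelled C3aR-positive, where 13% of all genes were higher and 9.7% lower. They were led by Zbp1, Rsad2 and Ifi27l2a with log2 differences of 2.48, 2.35 and 2.35, and the median of the 23 was 1.38. Across all sorted microglia none was called by limma or edgeR, where limma called 2.22% of all genes higher and 1.93% lower. The median was 0.26, with 3 higher at an unadjusted p under 0.05, for which the share of all genes is not given here. DESeq2 called Ifit2. Without the 4 libraries of fewest genes 7 were higher and 1 lower, in a fit with many more calls over the whole table. On the C3aR-KO background none was higher and Ddx58 was lower (-0.81), with a median of 0.28, where 3.96% of all genes were higher and 2.97% lower.

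Cxcr4, the only receptor among the 10 genes, rose with APP-KI in all 3 settings. Among the libraries labelled C3aR-positive it was at 10.3, 14.2 and 10.6 in WT and at 54.3, 45.7 and 96.3 in APP-KI. Within all sorted microglia it was at 4.29, 13.2 and 35.1 in WT and at 42.6, 33.2 and 64.8 in APP-KI. In C3aR-KO it was at 4.69, 17.0 and 11.3, and in APP-KI; C3aR-KO at 32.0, 34.2, 80.5, 88.1 and 46.1. WT replicate 6, at 35.1, overlapped with the APP-KI libraries, and the other comparisons had no overlap. Its log2 difference was 2.32 ± 0.29 (SE, limma adjusted p = 0.000584) in the libraries labelled C3aR-positive, 2.07 ± 0.48 in all sorted microglia (adjusted p = 0.0241) and 2.00 ± 0.43 on the C3aR-KO background (adjusted p = 0.0101). In all sorted microglia the call was lost without WT replicate 4 (1.54, adjusted p = 0.258) or 5 (1.92, 0.0973), or APP-KI replicate 4 (1.95, 0.0851), 5 (2.11, 0.0557) or 6 (2.21, 0.0865), and with no filter, edgeR, the replicate block, no series term or only the 2 groups compared (adjusted p = 0.0689 to 0.197). With C3aR-KO as background it was lost without C3aR-KO replicate 1 (1.72, 0.0507) or 3 (1.63, 0.089), with edgeR (0.0524) and with the replicate block (0.0585). Within the 2 library series of all sorted microglia the Cxcr4 difference was 2.87 and 1.54, the second also being the value without all 6 libraries of unusual gene number. Its ligand gene Cxcl12 and the scavenging receptor gene Ackr3 were at scaled values of at most 13.8 and 4.17 and were not called in any APP-KI comparison.

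To set levels of different genes side by side, scaled values were divided by the exon length of each gene. In WT microglia the order per kb was Ccl4 (56.8 ± 26.3, SD, n = 3), Ccl3 (56.1 ± 23.4), Ccl6 (42.2 ± 11.2), Ccl12 (41.6 ± 5.54), Cxcl16 (32.9 ± 3.84), Ccl9 (21.3 ± 3.88), Ccl2 (12.1 ± 5.21), Cxcr4 (9.69 ± 8.77), Ccl5 (1.58 ± 0.16) and Cxcl10 (0.985 ± 0.476). Neighbours among the first 4 lay within 1 SD of each other, as did Ccl2 and Cxcr4, so these libraries do not fix their order. In APP-KI microglia Ccl3 (284 ± 19.9), Ccl6 (258 ± 132) and Ccl4 (157 ± 20.1) led, with Ccl3 and Ccl4 each within 1 SD of Ccl6. The gap from Ccl4 to Cxcl16 (58.8 ± 18.1) exceeded the spread of both, whereas Cxcl16 and Ccl12 (45.4 ± 13.2) lay within 1 SD of each other. In APP-KI; C3aR-KO the 4 leading genes were Ccl6 (358 ± 96.1, n = 5), Ccl3 (323 ± 75.5), Ccl4 (168 ± 66.3) and Cxcl16 (45.8 ± 14.8), and in the APP-KI libraries labelled C3aR-positive they were Ccl6 (369 ± 66.5, n = 3), Ccl3 (360 ± 44.2), Ccl4 (195 ± 19.99) and Cxcl16 (59.9 ± 12.1). Cxcl10 was last in all 6 conditions, between 0.521 in the WT libraries labelled C3aR-positive and 3.05 in their APP-KI counterparts.

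Among the genes for receptors and other partners of these chemokines (11 found, 10 tested), none passed the threshold as higher with APP-KI. Some means differed without a call. In all sorted microglia the mean of Cxcr6 was 4.86 in WT and 12.5 in APP-KI, and that of Cxcl12 2.74 and 6.04, with overlapping groups. In the libraries labelled C3aR-positive both means were lower in APP-KI (9.88 and 3.93 for Cxcr6, 4.93 and 1.85 for Cxcl12). On the C3aR-KO background Cxcr6 went from 7.27 to 5.02 and Cxcl12 from 1.98 to 3.97. Cx3cr1, the fractalkine receptor gene that marks microglia, was at 5894, 6035 and 5291 in WT and at 3471, 3015 and 3868 in APP-KI in the libraries labelled C3aR-positive. Among all sorted microglia it was at 6075, 6634 and 6284 in WT and at 1913, 4150 and 4566 in APP-KI. In C3aR-KO it was at 5148, 3633 and 6097, and in APP-KI; C3aR-KO at 1692, 4849, 4858, 4670 and 5537. All WT libraries lay above all APP-KI libraries in both sorts, whereas the groups overlapped on the C3aR-KO background. In all sorted microglia 16.4% of genes separated in this direction, and for the libraries labelled C3aR-positive that share is not given here. The log2 difference was -0.74 ± 0.19 (SE, limma adjusted p = 0.0215) in the libraries labelled C3aR-positive, and it did not pass in the other 2 comparisons (-0.75 and -0.43, adjusted p = 0.521 and 0.541). With 1 library left out the call was kept without APP-KI C3aR-positive replicate 3 and lost without any other (limma adjusted p = 0.0535 to 0.0865), and it was lost with the replicate block (0.0752). Ccr1, the receptor gene for CCL6 and CCL9, was at 11.6 to 13.9 in WT and at 2.20 to 9.41 in APP-KI in the libraries labelled C3aR-positive, and had log2 differences of -1.13, -0.54 and -0.89 in the 3 comparisons, none past the threshold (limma adjusted p = 0.103, 0.909 and 0.4).

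**Figure D5:**
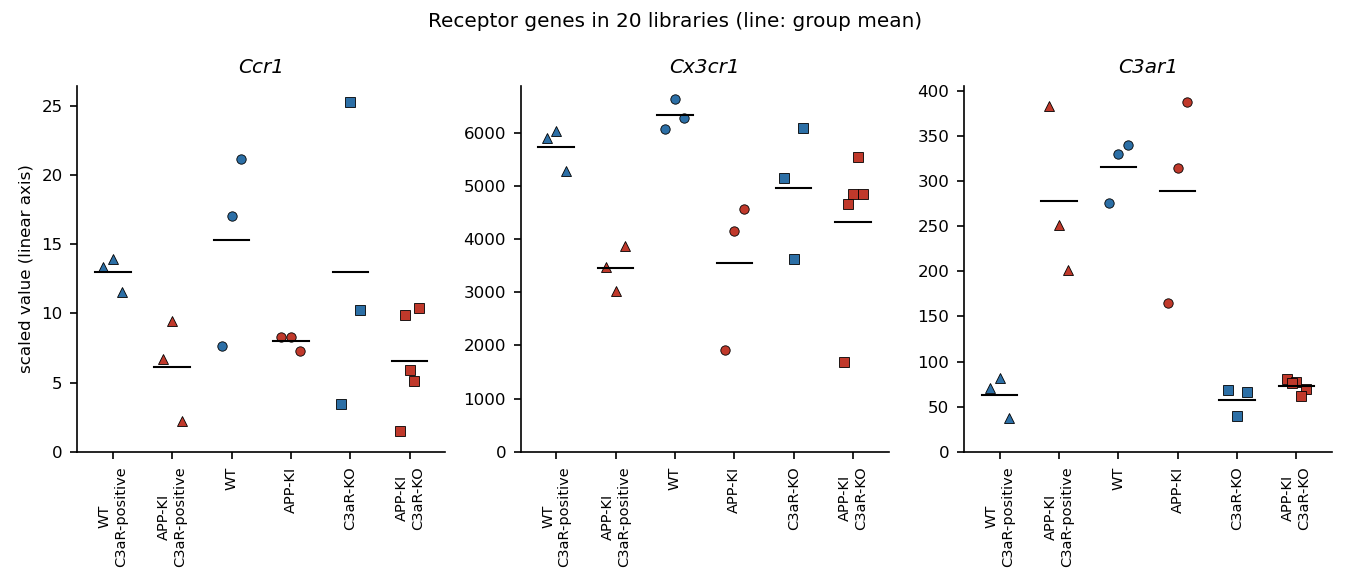
Scaled values (linear axes from 0) of the receptor genes Ccr1, Cx3cr1 and C3ar1 in the 20 libraries, 1 point per library with a line at each group mean. For Cx3cr1 all APP-KI libraries lie below all WT libraries in both sorts, but the difference passed the threshold only in the libraries labelled C3aR-positive. C3ar1 is low in the knockouts and in the WT libraries labelled C3aR-positive.

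In the libraries labelled C3aR-positive, 2 of the 10 partners were lower in APP-KI, Cx3cr1 and Adam10 (-0.39, limma adjusted p = 0.0282), with a median of -0.66 over the 10 against -0.17 over all genes. Of all genes, 9.7% were lower there and 1.93% in all sorted microglia. Adam10 was lost without any 1 of 4 libraries, the 3 of WT and replicate 1 of APP-KI (limma adjusted p = 0.0601 to 0.105), with median ratio scaling (0.12) and with the replicate block (0.0604). Across all sorted microglia 1 was lower, Adam10 (-0.70, limma adjusted p = 0.039), which was lost without any 1 of 9 libraries, all 6 of WT and APP-KI among them (0.0578 to 0.331), and with the replicate block (0.388), and was kept without the libraries of fewest genes (0.0013). On the C3aR-KO background, where 2.97% of all genes were lower, 1 was lower, Ccr2 (-1.43, limma adjusted p = 0.0478), the receptor gene for CCL2 and CCL12. Its call was lost without any 1 of 11 libraries (0.0535 to 0.178) and with the replicate block (0.129).

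Of 22 other chemokine and receptor genes tested in the libraries labelled C3aR-positive, APP-KI was higher than WT for 5 and lower for 1, with a median of -0.54, where 13% of all genes were higher and 9.7% lower. The 3 largest rises were those of Mif (3.20), which encodes a cytokine that can bind CXCR4, Cxcl14 (3.12) and Ccrl2 (1.84), an atypical receptor gene, and the fall was that of Ccl24 (-1.83), whose call was lost without any 1 library but APP-KI C3aR-positive replicate 2 (limma adjusted p = 0.0772 to 0.179) and in 5 of 6 other settings (0.0614 to 0.151). Mif was at 3.57, 4.98 and 3.10 in WT and at 37.9, 51.4 and 41.6 in APP-KI, but it has near-identical copies in the genome that could share its reads. Within all sorted microglia 0 of 23 passed with limma, edgeR or DESeq2, where limma called 2.22% of all genes higher and 1.93% lower. An unadjusted p under 0.05 was met by 3, a level for which the share of all genes is not given here. Without the 4 libraries of fewest genes 5 passed (3 higher, 2 lower). That fit called many more genes over the whole table, as given above. With C3aR-KO as background, where 3.96% of all genes were higher, 2 were higher, Mif (3.09) and Cd74 (1.84), which encodes a receptor of MIF. The call of Mif was lost under edgeR (adjusted p = 0.105) and that of Cd74 without C3aR-KO replicate 1 or 3 (limma adjusted p = 0.0548 and 0.0942).

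Of the genes of signalling below chemokine receptors, 38 were found and tested. Among the libraries labelled C3aR-positive 4 were higher and 12 lower with APP-KI, with a median of -0.34, where 13% and 9.7% of all genes were higher and lower, and edgeR gave 4 and 4, DESeq2 4 and 5. In all sorted microglia 1 was higher and 8 lower, and on the C3aR-KO background also 1 and 8, with medians of -0.34 and -0.29. Of all genes 2.22% were higher and 1.93% lower in the first of these, and 3.96% and 2.97% in the second. Without the 4 libraries of fewest genes there were 4 and 18 in all sorted microglia. That fit had many more calls over the whole table. The gene that was higher in all 3 was Fgr, a Src family kinase gene, with log2 differences of 2.15, 1.91 and 2.17 (limma adjusted p = 6.45e-05, 0.00427 and 0.000424). Elmo1, which acts with DOCK proteins in cell migration, and Pik3r5, a regulatory subunit of the PI3K that G protein-coupled receptors activate, were lower in all sorted microglia (-1.02 and -0.84) and on the C3aR-KO background (-0.91 and -0.82). The call of Pik3r5 was lost in all sorted microglia without any 1 of 8 libraries, the 6 of WT and APP-KI and APP-KI; C3aR-KO replicates 4 and 5 (limma adjusted p = 0.0506 to 0.31), and on the C3aR-KO background without C3aR-KO replicate 1 or 3 (0.0642 and 0.0674). That of Fgr was lost in all sorted microglia without WT replicate 4 (0.056), and the calls of Fgr there and of Elmo1 and Pik3r5 in both comparisons were lost with the replicate block (0.103 to 0.398).

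Of 15 NF-κB response genes, 6 were higher with APP-KI and 3 were lower in the libraries labelled C3aR-positive, with a median of 0.49, led by Il1b (1.96), Cd83 (1.73) and Tnf (1.10). Over all genes 13% were higher and 9.7% lower in these libraries, 2.22% and 1.93% in all sorted microglia, and 3.96% and 2.97% on the C3aR-KO background. In the other 2 APP-KI comparisons 1 was higher, Cd83 (1.48 and 1.65), and 1 was lower, Rel (-0.66 and -0.90). The call of Tnf was kept without replicate 1 of either group and lost without any other library (limma adjusted p = 0.0849 to 0.107), with no filter (0.0796) and with the replicate block (0.0629). In all sorted microglia Rel was lost without WT replicate 4, 5 or 6 or APP-KI replicate 5 or 6 (0.0741 to 0.131), and Rel and Cd83 were lost with the replicate block (0.552 and 0.0607) and with only the 2 groups compared (0.133 and 0.0814). Of 25 genes known to rise during warm enzymatic dissociation, 5 were higher (led by Egr2, Atf3 and Gem at 2.14, 1.85 and 1.45) and 7 were lower in the libraries labelled C3aR-positive, beside 13% and 9.7% of all genes, with a median of -0.42. Gem was lost without any 1 library but WT C3aR-positive replicate 1 (limma adjusted p = 0.0613 to 0.09) and with no filter (0.0932). Among all sorted microglia none of the 25 passed with limma, edgeR or DESeq2, with a median of -0.02. An unadjusted p under 0.05 was met by 3 (2 higher, 1 lower), for which the share of all genes is not given here. Leaving out the 4 libraries of fewest genes gave 1 higher and 4 lower. That fit had many more calls over the whole table. On the C3aR-KO background Egr2 (2.62) alone passed. Ccl3, Ccl4 and Cxcr4 themselves passed in these comparisons, and the part of the dissociation in their values was not tested. No gene of these lists was called for C3ar1 loss on either background.

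Markers of further cell types were also read in the 3 APP-KI comparisons. Monocyte and neutrophil markers (8 found, 7 tested) had no call apart from the fall of Ccr2 given above. Of the neuron markers 1 of 6 could be tested and was not called. Of 5 astrocyte markers Gfap was higher in the libraries labelled C3aR-positive (2.58), and of 4 oligodendrocyte markers tested Mbp was higher there (1.07) and on the C3aR-KO background (1.06). Of 5 endothelial markers tested Flt1 was higher in all 3 comparisons (3.75, 4.26 and 3.80) and Pecam1 was lower in the libraries labelled C3aR-positive (-2.09). Of 9 microglia markers, 5 were lower in the libraries labelled C3aR-positive, 2 (Sall1 and Siglech) in all sorted microglia and 1 (Siglech) on the C3aR-KO background, and all of the last 3 calls were lost with the replicate block (limma adjusted p = 0.257 to 0.775). Of all genes, 13%, 2.22% and 3.96% were higher and 9.7%, 1.93% and 2.97% were lower in these comparisons.

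The genes that varied most like each of the 10 were found among 10133 genes by Pearson's r of log2(scaled value + 1) over the 20 libraries, which share genotype and depth, so r is a description. The closest gene was Arap2 for Ccl3 (r = 0.975), Prr5l for Ccl4 (0.97), Hif1a for Ccl6 (0.978), Galns for Cxcr4 (0.949), Snx8 for Cxcl16 (0.96), Tgif1 for Cxcl10 (0.944), F13a1 for Ccl2 (0.887), Ptp4a1 for Ccl12 (0.88), Nup210 for Ccl5 (0.849) and Rnase4 for Ccl9 (0.816). After the mean of each group was subtracted, these became 0.793, 0.894, 0.768, 0.846, 0.895, 0.885, 0.835, 0.882, 0.799 and 0.865. The next genes were St8sia6 and Pwwp2b for Ccl3, Prdx6 and Psat1 for Ccl4, Aplp2 and Klhl6 for Ccl6, and Nrp2 and Capg for Cxcr4. Among the 10 genes themselves, Ccl3 went with Cxcr4 (0.919) and with Ccl6 (0.899) over all libraries, and after subtraction of the group means the first stayed at 0.664 and the second fell to 0.192. Ccl6 and Ccl9 did the opposite, with 0.172 over all libraries and 0.623 within groups.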

How the data were processed

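Microglial RNA was sequenced in 20 libraries made with a total-RNA kit. The authors trimmed reads with cutadapt, aligned them to mm10 with TopHat2 and counted them per gene with featureCounts. The deposited signal values, 1 column per library, are called FPKM in the file headers, but were found to be read counts per gene over each library's own 75th percentile, not divided by length. Whole reads were recovered for all values (tolerance 0.01 reads). Here each value was multiplied by 35.2 and log2(value + 1) was tested with limma 3.58.1 in R 4.3.3 for genes with a mean of at least 1, adjusting p-values over all genes (threshold 0.05, two-sided). The 6 libraries labelled C3aR-positive were fitted alone, the 14 of all sorted microglia together with their library series (24 or 26, the leading digits of the library numbers in the names of the deposited data, whose meaning is not given in the sources used here) as a term, and the 12 WT and APP-KI libraries together for contrasts of the sorts. Alternatives were a pseudocount of 0.1, no filter or a mean of 5, median ratio scaling, edgeR 4.0.16 and DESeq2 1.42.0 on recovered reads, a replicate block, no series term, only the 2 groups compared and leaving libraries out. Leaving out the libraries of few (under 13500) or many (over 17000) genes was chosen after seeing the data. The scripts were tested on simulated data. The named genes were all 10 members, the partners and, from each list, up to 3 called genes of largest difference. The members and lists were chosen with earlier results of these data known. Of the fixed lists, 1 partner gene and 1 microglia marker are not reported here.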

Additional observations from a re-analysis of the deposited data

Results flagged for a closer look

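Of the 10 members, 1 had a library far from the rest in the group of 5 APP-KI; C3aR-KO libraries, the only group with more than 3. Cxcl16 was at 59.6 in replicate 1 and at 144.9 to 167.7 in the other 4, a gap of 0.789 of the whole range, above Dixon's critical value for 5 samples, which chance passes in about 1 of 20 groups. This library also detected the fewest genes, 12387, and the part of that in the low value was not tested.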

How the results depend on the processing

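Of 2170 values recomputed under other settings, 1884 kept their direction and side of the threshold, 207 lost their call, 14 gained one, 56 changed sign and 9 moved. For the libraries labelled C3aR-positive 7 members were called in every setting but the filter at a mean of 5. There the count was 6, since Cxcl10 did not pass that filter and was not tested. Among all sorted microglia the count of members higher in APP-KI fell from 4 to 2 with no filter, with edgeR, without the series term and with only the 2 groups compared, and ranged from 2 to 5 with 1 library left out. With the replicate number as a block it was 7 in the libraries labelled C3aR-positive, 2 in all sorted microglia and 2 on the C3aR-KO background. Deviations of same-numbered libraries correlated between -0.0102 and 0.252, and those of differently numbered libraries between -0.239 and 0.238. Such correlations cannot tell whether the numbers pair the samples. For the contrasts of the sorts within 1 genotype no replicate block could be fitted, because there the block is collinear with the sort. For small differences the sign changed. With edgeR and DESeq2, Ccl4 gave 0.035 and 0.042 for C3ar1 loss in WT. Without the series term, C3ar1 loss in APP-KI gave 0.16 for Ccl3, 0.011 for Ccl4 and 0.19 for Cxcr4, and Ccl9 gave 0.036 for APP-KI on the C3aR-KO background. With only the groups compared, C3ar1 loss gave 0.10 for Ccl3 in APP-KI and 0.17 for Ccl4 and 0.027 for Cxcr4 in WT. Without the 4 libraries of fewest genes, Ccl12 gave -0.11 for APP-KI in all sorted microglia, Ccl3 0.072 and Ccl4 0.11 for C3ar1 loss in APP-KI, Ccl3 0.34, Ccl4 0.48 and Ccl6 -0.66 for C3ar1 loss in WT, and Ccl9 0.16 for APP-KI on the C3aR-KO background. Without all 6 libraries of unusual gene number, the corresponding values were 0.10 for Ccl9 and -0.48 for Ccl12; 0.21 for Ccl3, 0.34 for Ccl4, 0.043 for Ccl12 and 0.088 for Cxcr4; 0.10 for Ccl3, 0.14 for Ccl4 and -0.73 for Ccl6; and 0.10 for Ccl9 and -0.055 for Cxcl10, while Ccl6 gave -0.090 between the sorts in APP-KI. With 1 library left out, the differences with APP-KI in all sorted microglia ran from -0.45 to 1.30 for Ccl5, -0.47 to 0.012 for Ccl9 and -0.040 to 0.67 for Ccl12, and on the C3aR-KO background from -0.49 to 0.20 for Ccl5, -0.26 to 0.029 for Ccl9 and -0.67 to 0.0093 for Ccl12. Those for C3ar1 loss in APP-KI ran from -0.33 to 0.11 for Ccl3, -0.59 to 0.039 for Ccl4 and -0.23 to 0.035 for Cxcr4, and in WT from -0.82 to 0.24 for Ccl3, -0.42 to 0.45 for Ccl4, -0.038 to 1.07 for Ccl6 and -0.56 to 0.46 for Cxcr4. The causes were not tested. Depth limits Cxcl10 and Ccl5 most, with as few as 15 and 21 reads in a library.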
